A study of Mus musculus with 3 samples.

Results

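A set of 10 kidney tubule and epithelial genes was followed through RNAseq libraries of sorted immune cells. They were chosen by name as 2 genes of the proximal tubule (Lrp2 and Slc34a1), 1 of the distal tubule (Umod), 3 of the nephron lineage (Pax2, Pax8 and Cdh16) and 4 of epithelium in general (Epcam, Cdh1, Krt8 and Krt18), out of the 36835 genes that the table of transcript levels held. The cells came from BALB/C mice that carried tumors of a mouse renal carcinoma cell line injected into the kidney. The labels name this line Renca, while the study gives Renca Ch+L+, a form that carries Cherry and luciferase, for the sorted cells. M1 and M2 macrophages were sorted from 30 harvested tumors, and CD4 T cells from 4 spleens of tumor-bearing mice, although another label of the CD4 sample names renal tumors as its source. All 3 groups therefore share the tumor, the strain and the sort by membrane antibodies to leukocyte, T-cell and macrophage antigens, and the labels give both day 14 and day 16 for the harvest. Each group was 1 library of RNA from pooled mice, so no difference between groups has a replicate check and no p-value is given.

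The tubule of the kidney is a single-layered epithelium. Its proximal part reclaims phosphate, glucose and filtered protein, and its distal parts adjust salt, magnesium and water. Pax2 and Pax8 are paired-box transcription factors that specify the nephron and persist in many renal carcinomas, while E-cadherin (Cdh1), Epcam and the keratin pair Krt8 and Krt18 mark simple epithelia in many organs. None of the 10 is used as a marker of T cells or macrophages, although E-cadherin has been described in some macrophages and dendritic cells.

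The names of the libraries were first compared with their own cell subset genes. All 9 T-cell genes measured were highest in the library labelled M2, at 56.7 to 434 FPKM, against 0 to 3.39 in M1 and 0 to 0.329 in CD4. The most abundant by the mean of the libraries was Trbc1, at 0.400 FPKM in M1, 434 in M2 and 0.329 in CD4, followed by Lck and Cd3g. All 10 macrophage genes were lowest in the library labelled M2. The most abundant by the mean was Lyz2, the macrophage lysozyme, at 5975 FPKM in M1, 330.2 in M2 and 6687 in CD4, followed by C1qa and C1qb. Levels are in FPKM, the number of fragments of a transcript divided by its length and by the depth of the library. These levels go against the labels M2 and CD4, so the libraries are called by their labels throughout and no direction below should be read as one between T cells and macrophages. The depth of the libraries, estimated from the smallest steps in FPKM times length, was 58700000 fragments for M1, 60800000 for M2 and 74800000 for CD4.

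Some transcript identifiers had several rows, some of them with a dash in place of a value in 1 or more libraries. The level of a gene was the sum, over its transcripts, of the first row with values in all 3 libraries. Because this leaves rows out, the sum over all rows is given beside it for the 10 genes and for counts over gene lists. For another gene whose level is given, the sum is added where its highest library changed. It is also given for Slc27a2, Slc12a3, Clu, Cela1, Ckm, Sag and Pecam1, whose ratios between libraries changed. All other levels are by complete rows, and some of their ratios changed too. The sum over all rows has its own limits, since a single left-out row put Pck1 at 6292 FPKM in CD4. At least 1 FPKM was reached by 6 of the 10 genes in the library labelled M1, 7 in M2 and 7 in CD4. The corresponding shares of all genes were 29.8%, 31.6% and 29.9%. At least 0.1 FPKM was reached by 8, 10 and 10 of the 10, against 38.4%, 40.9% and 38.9% of all genes. The 2 genes below 0.1 FPKM in M1 were Umod and Pax2, both listed at 0, and both had a level above 0 there once all rows were summed. By all rows 8, 8 and 7 of the 10 genes reached 1 FPKM in M1, M2 and CD4, beside 32.9%, 35.7% and 33.1% of all genes. All 10 then reached 0.1 FPKM in each library, beside 42.2%, 45.3% and 42.7% of all genes.

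**Figure D1:**
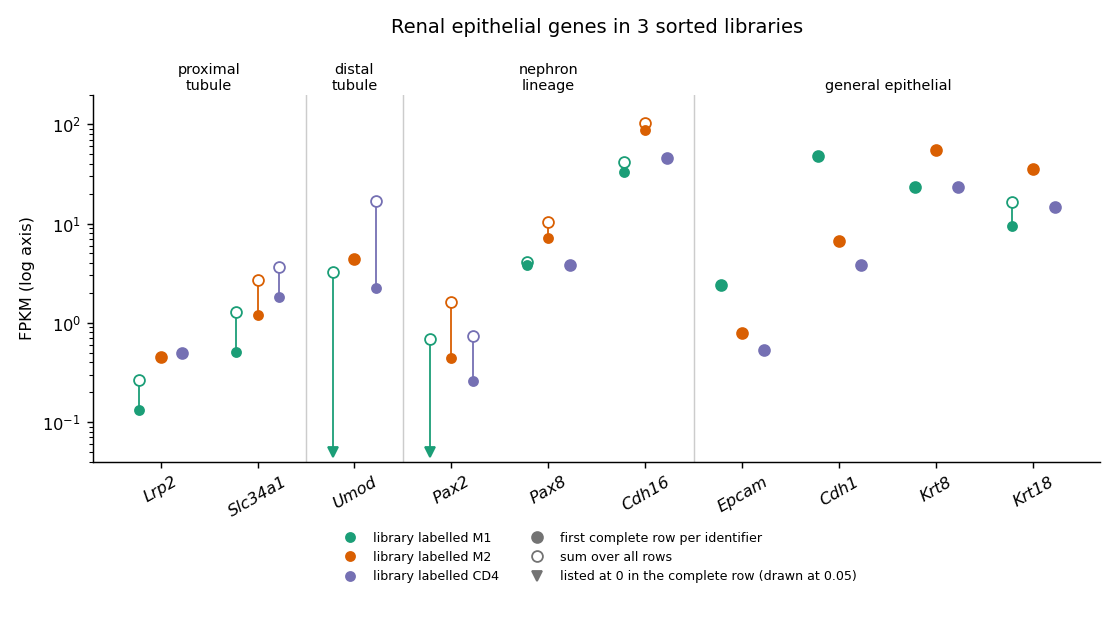
FPKM on a log axis of each of the 10 genes in the libraries labelled M1, M2 and CD4, with 1 library per point. Filled points are the first complete row per identifier, open points the sum over all rows, and triangles a level listed at 0; Cdh16 and Krt8 lie highest in M2, Cdh1 and Epcam highest in M1.

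The genes followed 3 patterns across the libraries. Pax8, Cdh16, Krt8 and Krt18 were highest in the library labelled M2. Slc34a1 and Lrp2 were highest in CD4. For Lrp2 M2 followed closely, and with the libraries rescaled to the same total M2 was higher than CD4 by a log2 ratio of 0.016. Cdh1 and Epcam were highest in M1. Umod and Pax2 were highest in M2 by complete rows, but by all rows Umod was highest in CD4. Between M2 and M1, 7 of the 10 genes were at least 2-fold higher in M2 on the scale of log2(FPKM + 0.1), which understates the difference of low genes, and 2 were at least 2-fold lower. Of the 16693 genes with at least 0.1 FPKM in a library, 22.8% were higher and 16.3% lower by the same rule. All 10 of the genes passed this filter, but Umod and Pax2 passed only through libraries other than M1. By all rows 6 were higher (25.7% of all genes) and 2 lower (15.3%). Between M2 and CD4, 2 of the 10 were higher in M2 (22.4% of all genes) and 0 lower (17.0%), but by all rows 5 were higher (25.2%) and 1, Umod, was lower (16.1%). The count thus lay near the share of all genes by complete rows and above it by all rows. Between CD4 and M1, 4 were higher in CD4 (9.87% of all genes) and 2 lower (9.21%), and by all rows 2 were higher (9.54%) and 2 lower (8.84%). The median log2 ratio of the 10 genes was 1.24 for M2 to M1, 0.84 for M2 to CD4 and 0.55 for CD4 to M1, beside 0.14, 0.14 and 0 over all genes that passed the filter. By all rows these medians were 1.07, 0.92 and 0.041, beside 0.24, 0.22 and 0, so that the difference between CD4 and M1 was not kept. The medians by complete rows include Umod and Pax2, whose level of 0 in M1 did not hold by all rows. The comparisons share libraries and are not independent of each other.

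**Figure D2:**
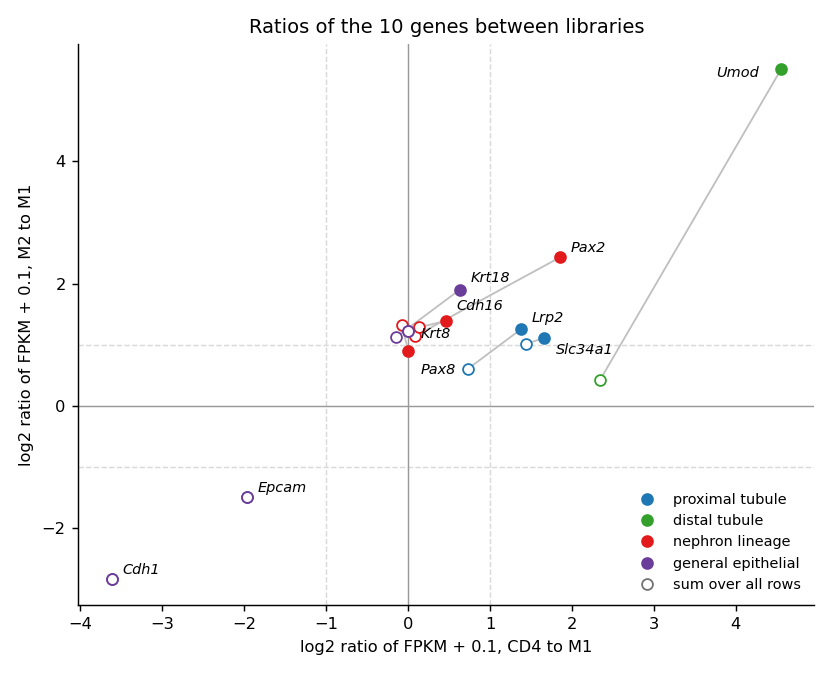
The log2 ratio of FPKM + 0.1 of CD4 to M1 (horizontal) against that of M2 to M1 (vertical) for the 10 genes, colored by group, with dashed lines at a 2-fold difference. Filled points are complete rows and open points the sum over all rows, joined by a line; with all rows Pax2, Pax8, Cdh16, Krt8 and Krt18 lie close together, at 2.18 to 2.53 times the M1 level in M2 and 0.901 to 1.10 times in CD4.

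Of the genes of the proximal tubule, Lrp2 encodes megalin, the large endocytic receptor that takes up filtered protein. It lies on chromosome 2 from 69262397 to 69424122 on the reverse strand of build NCBIM37 (MM9), and its leading transcript has 15460 bases in 79 exons. Lrp2 was at 0.131 FPKM in the library labelled M1, 0.452 in M2 and 0.501 in CD4. M1 was lowest, and M2 and CD4 were within a ratio of 1.11 of each other. Because the transcript is long, these low levels correspond to about 119, 425 and 579.9 fragments at the estimated depths. With all rows the level in M1 was 0.263, and the ratio of CD4 to M1 went from 3.82 to 1.91.

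Slc34a1 encodes the sodium-phosphate cotransporter of the proximal tubule brush border and lies on chromosome 13 from 55501009 to 55516056. It was at 0.509 FPKM in the library labelled M1, 1.21 in M2 and 1.82 in CD4, so that the order was the same as for Lrp2. The ratio of CD4 to M1 was 3.57. Of its 11 rows 9 were left out by the rule, all of them of the transcript ENSMUST00000116411. With them the levels were 1.28, 2.70 and 3.66 in the same order of libraries, and the ratio of CD4 to M1 was 2.85. The order of the libraries did not change. The gene Pfn3 on the opposite strand overlaps exons of Slc34a1, and Pfn3 was listed at 0 in each library.

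Umod encodes uromodulin, the protein of the thick ascending limb that is the most abundant one in normal urine. It lies on chromosome 7 from 126606380 to 126622769, with 1 annotated transcript of 11 exons. Its complete row held 0 FPKM for M1, 4.42 for M2 and 2.24 for CD4. A second row of the same transcript held 3.26 FPKM in M1 and 14.7 in CD4, with a dash in M2. Summed over both rows, Umod was at 3.26, 4.42 and 17.0 FPKM in M1, M2 and CD4. The highest library thus turned from M2 to CD4, and the ratio of CD4 to M2 from 0.508 to 3.84, with the choice of rows. No fold against M1 is given by complete rows, since the 0 there stood beside a second row above 0.

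Among the nephron lineage genes, Cdh16 was the most abundant of the 10 in the libraries labelled M2 and CD4. It encodes kidney-specific cadherin, an adhesion protein of tubule cells, and lies on chromosome 8 from 107125813 to 107148296 on the reverse strand. Cdh16 was at 33.4 FPKM in M1, 87.8 in M2 and 46.0 in CD4. These levels were above those of 89.8%, 97.5% and 93.1% of the genes above 0 in the same libraries. M2 exceeded M1 by a ratio of 2.63 and CD4 by 1.91. Of the level in CD4, 8.79 FPKM lay in the transcript ENSMUST00000163783, which was listed at 0 in M1 and M2. With all rows the levels were 41.9, 102 and 46.0 FPKM, and the ratio of CD4 to M1 went from 1.37 to 1.10.

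Pax8 lies on chromosome 2 from 24276071 to 24331119, and 1 of its 7 complete rows was above 0. It was at 3.83 FPKM in M1, 7.24 in M2 and 3.85 in CD4. M1 and CD4 differed by a ratio of 1.00, while M2 was 1.89 times M1 and 1.88 times CD4, just under the 2-fold limit. With all rows M2 was at 10.3 FPKM, which is 2.53 times the 4.07 of M1. The gene Gm13415 on the opposite strand overlaps exons of Pax8 and was listed at 0 in each library.

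Pax2 was far lower than Pax8. It lies on chromosome 19 from 44830539 to 44912758, and its 11 rows were spread over 6 of its 7 annotated transcripts. The complete rows gave 0 FPKM in M1, 0.438 in M2 and 0.261 in CD4, all in the transcript ENSMUST00000174490. The rows with values in some libraries alone gave more than this in each library, and with them Pax2 was at 0.685, 1.63 and 0.731 FPKM. M2 was highest by either sum. By all rows the level of Pax8 was 5.94 times that of Pax2 in M1, 6.31 times in M2 and 5.26 times in CD4. By complete rows it was 16.6 times in M2 and 14.7 times in CD4, so the proportion of these factors depends on the choice of rows.

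Of the general epithelial genes, Krt8 and Krt18 encode the type II and type I keratins that pair into the filaments of simple epithelia. They lie on chromosome 15, Krt8 from 101827142 to 101834773 on the reverse strand and Krt18 from 101858647 to 101862457 on the forward strand, with 23873 bases between them. Krt8 was at 23.3 FPKM in M1, 54.6 in M2 and 23.3 in CD4. The levels of M1 and CD4 differed by less than 1%, while M2 was 2.34 times each of them. Krt18 was at 9.51 FPKM in M1, 35.8 in M2 and 14.8 in CD4, again highest in M2. A second row of Krt18 had a value in M1 alone, 6.92 FPKM, and with it the ratio of M2 to M1 went from 3.77 to 2.18 and that of CD4 to M1 from 1.56 to 0.901. The ratio of Krt8 to Krt18 was then 1.42, 1.52 and 1.57 in M1, M2 and CD4, against 2.45 in M1 without that row.

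Both keratins have copies elsewhere in the genome, which bears on their levels. Over 1734 bases the Krt8 transcript matched a continuous stretch of chromosome 7, from 24142113 to 24143830, with 97.9% identity. The stretch lies within the gene Nlrp4e and overlaps 0 of its exons. A row under an Nlrp4e identifier held 22.1 FPKM in M1, 52.7 in M2 and 23.4 in CD4, which is 94.7%, 96.5% and 100.4% of the level of Krt8. The table gives no coordinates, so the place of that row is not known, and how fragments were shared between Krt8 and its copy was not tested. The level of Krt8 is therefore uncertain. M2 was highest in both rows, while M1 and CD4 were close and stood in opposite order. Krt18 matched chromosome 13 from 118246579 to 118247933 over 1385 bases at 90.5% identity, and no annotated gene lies there. The other 8 genes had matches of at least 90% identity and 51 bases elsewhere over at most 3.27% of their leading transcript.

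Promoters of 8 of the 10 genes were found in RefSeq sequences of build GRCm38.p6, from 250 bases before to 50 after the start, and Cdh1 and Cdh16 were not among them. The E-box CACCTG, the kind of element through which Snail and Zeb factors repress epithelial genes, was searched on both strands. It was found in a promoter of 6 of the 8 genes (Pax2, Pax8, Umod, Krt8, Krt18 and Epcam), and in 20.2% of all promoters. The first count is per gene and the share per promoter, so the measures are unlike. Pax2 has several promoters, with 0, 0 and 1 sites. Epcam had 2 sites, and each of the other 5 genes had 1. The site of Krt18 and, of Epcam, the site farther from the start are shown, because Krt18 was highest in M2 and Epcam in M1.
Krt18, chr15:102027990-102028019, forward strand: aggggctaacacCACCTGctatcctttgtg
Epcam, chr17:87635780-87635809, forward strand: gccagtagggccCACCTGctggaggaccgg
Capitals mark the E-box. Both genes were taken from those with a site, so the presence of these letters could not separate Krt18 from Epcam. It says nothing of which factor was bound. Lrp2 and Slc34a1 had 0 sites.

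Cdh1 and Epcam went the other way. Cdh1 lies on chromosome 8 from 109127251 to 109194146. Its levels were 48.2 FPKM in M1, 6.69 in M2 and 3.84 in CD4. It was the most abundant of the 10 genes in M1, where its level was 7.21 times that in M2 and 12.6 times that in CD4. Epcam encodes an adhesion protein of the lateral membrane and lies on chromosome 17 from 88035319 to 88050446. Epcam was at 2.39 FPKM in M1, 0.786 in M2 and 0.536 in CD4, so that M1 was 3.04 times M2 and 4.46 times CD4. The rows left out held 0 FPKM for Cdh1, and Epcam had 1 row, so neither depended on the choice of rows. Cdh1 was 20.2 times Epcam in M1, 8.51 times in M2 and 7.16 times in CD4. The cadherins stood in opposite order, since Cdh16 was 0.694 times Cdh1 in M1 but 13.1 times in M2 and 12.0 times in CD4. By all rows these ratios were 0.870, 15.3 and 12.0.

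Because bulk libraries were measured, fewer cells of a type and less RNA per cell cannot be told apart in any of these levels. The other genes of the nephron were read from lists for each segment. Of 57 genes of the proximal tubule, distal tubule, collecting duct and nephron lineage, 9 reached 1 FPKM in the library labelled M1, 10 in M2 and 14 in CD4. This was 15.8%, 17.5% and 24.6% of them, below the share of all genes in each library. By all rows 9, 15 and 16 reached it, or 15.8%, 26.3% and 28.1%, again below the shares of all genes. Of 24 genes of other organs, such as Alb of the liver and Ins2 of the pancreas, 2, 1 and 1 reached 1 FPKM, and 2, 2 and 1 by all rows. The highest of these was Cela1, at 3.60 in M1, 1.19 in M2 and 12.0 in CD4, followed by Ckm, at 1.15, 0 and 0.641, and Sag, at 0.386, 0.649 and 0.0911. By all rows Cela1 was at 4.00, 8.39 and 18.4, so that M2 was above M1. Ckm was then at 1.15, 0.140 and 0.641 and Sag at 0.386, 1.50 and 0.571. The median over the 57 nephron genes was 0.0879 FPKM in M1, 0.137 in M2 and 0.231 in CD4, and over the genes of other organs 0.00476, 0.00426 and 0. By all rows the medians of the 57 were 0.0923, 0.166 and 0.315.

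**Figure D3:**
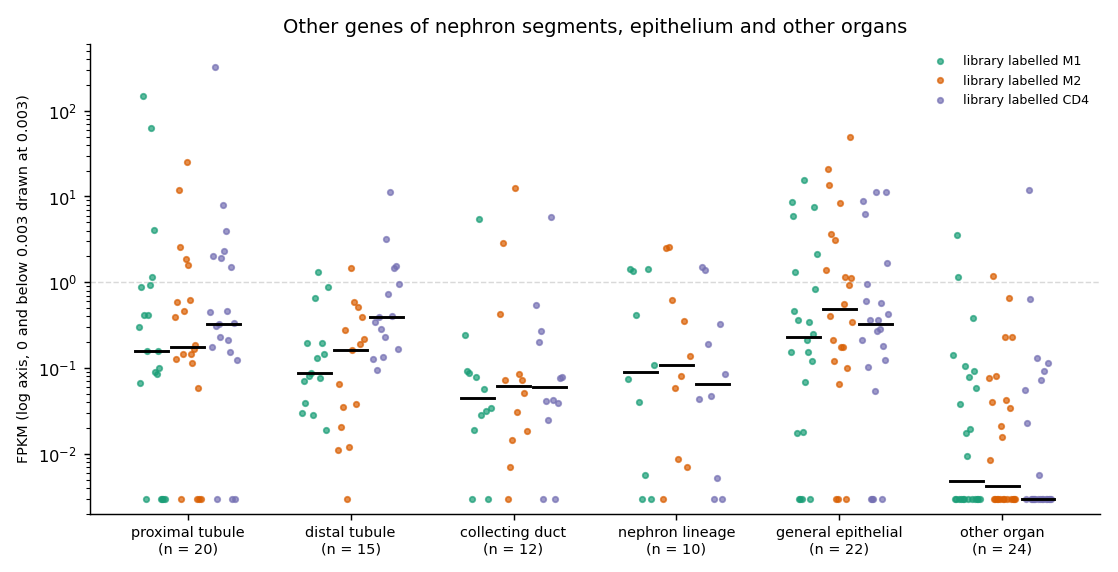
FPKM on a log axis of every gene of 6 lists in the libraries labelled M1, M2 and CD4, with levels under 0.003 drawn at 0.003, bars at the list median and a dashed line at 1 FPKM. The median of the distal tubule genes is highest in CD4, at 0.397 FPKM, and 12, 12 and 15 of the 24 genes of other organs were listed at 0 in M1, M2 and CD4.

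Most genes of the mature distal tubule were highest in the library labelled CD4, as was Umod by all rows but not by complete rows. By complete rows this held for 14 of 15 such genes, whereas 26.4% of all genes that reached 0.1 FPKM in a library were highest there. By all rows it held for 13 of 15, beside 24.5% of all genes. Slc12a3, the thiazide-sensitive salt transporter, was at 0.146 FPKM in M1, 0.190 in M2 and 1.56 in CD4. By all rows Slc12a3 was at 0.883, 1.84 and 5.30. Slc12a1, the furosemide-sensitive transporter of the thick ascending limb, was at 0.196, 0.519 and 1.47. Egf, which the distal tubule makes in large amounts, was at 0.649, 1.48 and 3.19, and Kcnj10, a potassium channel, at 1.31, 0.588 and 11.3. The exception was Sostdc1, highest in M2 at 0.390 FPKM, joined by all rows by Trpm6, at 0.883, 1.96 and 0.944. Between CD4 and M1, 10 of the 15 were at least 2-fold higher in CD4 (9.87% of all genes) and 0 lower (9.21%), and between M2 and CD4, 12 were lower in M2 (17.0%). By all rows these counts were 12 (9.54%), 0 (8.84%) and 12 (16.1%).

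Genes of the proximal tubule were less uniform. Of the 17 above 0 in a library, 12 were highest in CD4, and 13 by all rows. Of all genes that reached 0.1 FPKM, 26.4% were highest in CD4, and 24.5% by all rows. Slc27a2, a fatty acid transporter, was at 0.101 FPKM in M1, 0.186 in M2 and 1.50 in CD4. By the mean of the libraries the 3 most abundant genes of the list were Gatm, at 149, 12.0 and 323 FPKM, Napsa, at 63.7, 25.2 and 7.98, and Slc13a3, at 4.09, 0.618 and 3.97. Each of these 3 was above Slc34a1 and Lrp2 in every library but one, the exception being Slc13a3 in M2, where it was below Slc34a1. By all rows Slc13a3 was at 4.89, 0.618 and 9.69 and thus highest in CD4 in place of M1. Gatm was highest in CD4 and lowest in M2, as were 8 of the 10 macrophage genes. Which cells the levels of Gatm, Napsa and Slc13a3 came from was not tested. Genes of fibroblasts were also highest in CD4 for 6 of 8, and for 8 of 8 by all rows, beside the same shares of all genes. Col3a1 was at 2.34 FPKM in M1, 3.59 in M2 and 10.8 in CD4. Col1a2 was at 2.07, 3.15 and 9.87 FPKM and Col1a1 at 1.58, 2.02 and 7.96, and the summed level of the 8 was 8.19 in M1, 10.9 in M2 and 32.3 in CD4. The part of these cells in the levels of tubule genes was not tested.

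Genes of the collecting duct were divided. Of the 11 above 0 in a library, 6 were highest in CD4, 4 in M2 and 1 in M1, and by all rows 5, 5 and 1. Of all genes that reached 0.1 FPKM, 26.4% were highest in CD4, 47.0% in M2 and 26.5% in M1. By all rows these shares were 24.5%, 50.8% and 24.7%. Most of the 11 stayed under 0.1 FPKM in each library, so their order rests on very low levels. Hsd11b2, which protects the mineralocorticoid receptor from glucocorticoids, was the highest of this list in each library, at 5.48 FPKM in M1, 12.7 in M2 and 5.83 in CD4. Aqp3, a water channel, was at 0.0923, 2.90 and 0.199, and Aqp2, the vasopressin-regulated water channel, at 0.241, 0.421 and 0.536. By all rows Aqp2 was at 0.674, 1.19 and 1.03 and highest in M2. Of the nephron lineage list, Emx2, a transcription factor of the developing nephron, was at 1.41, 2.53 and 1.49 FPKM. Pou3f3 was at 1.42, 0.356 and 0.327, highest in M1, but by all rows at 1.42, 2.71 and 1.43, highest in M2. Of the 10 genes of the list 8 were highest in M2, while 47.0% of all genes that reached 0.1 FPKM were highest there. By all rows 8 of the 10 were highest in M2, beside 50.8% of all genes.

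Among 22 further epithelial genes, 6 reached 1 FPKM in M1, 9 in M2 and 5 in CD4, or 27.3%, 40.9% and 22.7%. The shares of all genes were 29.8%, 31.6% and 29.9%. By all rows 6, 10 and 7 reached 1 FPKM, or 27.3%, 45.5% and 31.8%, beside 32.9%, 35.7% and 33.1% of all genes. Of the 19 of these genes above 0 in a library, 11 were highest in M2, and 12 by all rows. Of all genes that reached 0.1 FPKM, 47.0% were highest in M2, and 50.8% by all rows. The tight junction claudins Cldn3, at 8.67, 20.9 and 8.97 FPKM, and Cldn4, at 5.92, 13.5 and 6.20, were again alike in M1 and CD4 and higher in M2. Spint2, a protease inhibitor and the highest of the list by the mean of the libraries, was at 7.53, 50.0 and 11.4. Jup, the junction protein plakoglobin, was at 15.7, 8.43 and 11.3, highest in M1. Esrp1 and Esrp2, splicing regulators of epithelial cells, and the protease Prss8 were listed at 0 in each library.

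Genes that injured tubules make were not uniform either. Spp1, or osteopontin, was at 1182 FPKM in M1, 652 in M2 and 760.7 in CD4, Clu at 20.1, 160 and 41.8, and Vcam1 at 3.42, 7.13 and 28.8. These genes are also expressed by many other cells. Havcr1, the kidney injury molecule, was at 0.0371, 0 and 0.0829 FPKM. By all rows Havcr1 was at 0.300, 1.78 and 0.180 and highest in M2, and Clu was at 75.7, 160 and 78.7. Of 8 endothelial genes, 1 was highest in M1, 3 in M2 and 4 in CD4, or 2, 5 and 1 by all rows. The shares of all genes were 26.5%, 47.0% and 26.4%, or 24.7%, 50.8% and 24.5% by all rows. Pecam1 was at 1.80, 35.0 and 1.42 FPKM, Plvap at 0.555, 1.55 and 1.05 and Kdr at 1.30, 0.350 and 1.48. By all rows Pecam1 was at 9.44, 50.1 and 1.42.

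Of 86 renal and epithelial genes, 14 reached 1 FPKM in all 3 libraries. In 6 of them, Cdh16, Krt8, Pax8, Cldn3, Cldn4 and Hsd11b2, M1 and CD4 were alike (a log2(FPKM + 0.1) ratio under 0.5 in size) and M2 was higher (such a ratio to M1 of at least 0.8). Emx2 lay just outside, at a log2 ratio of M2 to M1 of 0.798. The ratio of M2 to M1 in these 6 ran from 1.89 to 2.63, and that of CD4 to M1 from 0.999 to 1.37. Of the 9821 genes at 1 FPKM or more in all libraries, 11.9% met the same limits, which were set after the levels were seen. By all rows 18 of the 86 reached 1 FPKM in all libraries and 10 met the limits, beside 15.3% of 11077 genes. These were the same 6 with Krt18, Spint2, Crb3 and Pou3f3.

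**Figure D4:**
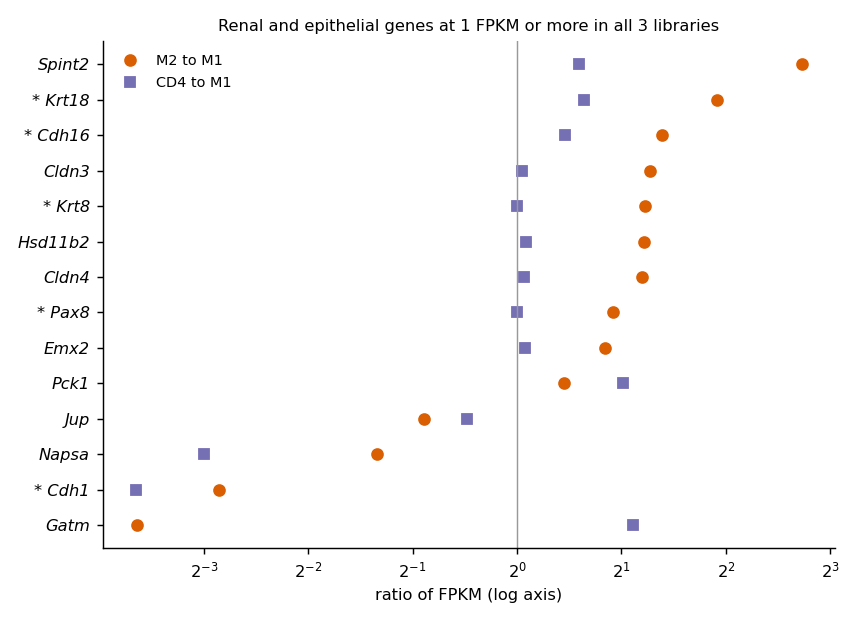
Ratio of FPKM of M2 to M1 (circles) and of CD4 to M1 (squares), on a log axis, for the 14 renal and epithelial genes with at least 1 FPKM in all 3 libraries, with a star before the names of the chosen genes. For 6 genes the squares lie near 1 while the circles lie between 1.89 and 2.63, and for Cdh1 and Napsa both lie far below 1.

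The nearest of 145 listed genes was found by the distance of log2(FPKM + 0.1) over the 3 libraries. Lrp2 was nearest to the endothelial cadherin Cdh5, at a distance of 0.46, Pax2 to Sostdc1, at 0.52, Slc34a1 to St14, at 0.65, and Krt18 to Spint2, at 0.69. Pax8 was nearest to Hsd11b2, at 1.12. Cdh16 and Krt8 were both nearest to Clu, at 1.14 and 1.78, Cdh1 to Napsa, at 2.20, and Umod to Aqp3, at 3.17. By all rows the nearest gene changed for 5 genes. It was then Acsm2 for Lrp2, Cdh5 for Pax2, Slc12a3 for Slc34a1, Spint2 for Krt8, and for Umod the fibroblast collagen Col3a1, at 0.84 in place of the 3.17 that rested on the level of 0 in M1. With 3 values per gene this likeness is a description of levels alone.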

How the data were processed

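RNAseq was measured in 3 libraries, labelled M1, M2 and CD4. The authors trimmed paired reads of 51 bases, aligned them to MM9 with Bowtie and TopHat, and estimated transcript levels with Cufflinks guided by an Ensembl annotation. The labels of the samples name Cuffdiff, which the study does not mention. The deposited values are in FPKM, and how the assemblies were joined is not given in the sources used here. Of 135070 rows, 42780 had a dash for at least 1 library. Identifiers were matched to the GENCODE annotation of NCBIM37, and 97.6% of 92519 were found. Columns were assigned by their headings. Gene levels were sums over identifiers of the first row complete in all 3 columns. Ratios were log2(FPKM + 0.1) differences over genes with at least 0.1 FPKM in a library, called at 1 or more in size. For depth, FPKM was multiplied by length in single-transcript genes of 2500 to 8000 bases and the commonest low product was read as 1 fragment. With other length ranges the depth of M1 was 58700000 to 62900000 fragments and that of M2 60800000 to 62900000. Fragment numbers are therefore approximate. Copies were searched with megablast at 90% identity.

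The 10 genes and the gene lists were chosen with earlier results of these data known. Named genes were the 10, the 3 most abundant of each list and the nearest listed gene. Others named as examples were chosen after their values were seen (Slc12a3, Slc27a2, Cldn4, Havcr1, Sostdc1, Alb, Ins2, Esrp1, Esrp2, Prss8, Trpm6, Pck1, Crb3, Nlrp4e, Pfn3 and Gm13415). A few listed genes and a sequence are not reported here by themselves. These genes are part of the list counts and medians, and were left out of the 86 genes compared for a shared pattern. No test was possible with 1 library per group. The calculations were tested on simulated data. Alternatives were other row choices, scalings, pseudocounts and filters. Python 3.11.15, numpy 2.4.6, pandas 2.3.3 and matplotlib 3.10.9 were used.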

Additional observations from a re-analysis of the deposited data

Results flagged for a closer look

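Rows that the gene levels leave out held more FPKM than the complete rows, in at least 1 library, for 4 of the 10 genes. They added 0 FPKM in M2 for Umod, and 0 in M2 and CD4 for Lrp2. For Umod the left-out row held 3.26 FPKM in the library labelled M1 and 14.7 in CD4. For Pax2 the left-out rows held 0.685 FPKM in M1, 1.19 in M2 and 0.470 in CD4. For Slc34a1 they held 0.774 in M1, 1.49 in M2 and 1.84 in CD4, and for Lrp2 0.132 in M1. All of these exceed the level of 3 fragments at the estimated depth, which for Umod is 0.0207 FPKM in M1. A row under an Nlrp4e identifier, outside the comparisons, held 22.1 FPKM in M1, 52.7 in M2 and 23.4 in CD4, beside 23.3, 54.6 and 23.3 for Krt8.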

How the results depend on the processing

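No paired analysis was possible because each group had 1 library. With the sum over all rows, the members at least 2-fold higher in M2 than in CD4 went from 2 to 5, those lower from 0 to 1 (Umod), those higher in CD4 than in M1 from 4 to 2, and genes of other organs at 1 FPKM in M2 from 1 to 2. With a pseudocount of 1, members higher in M2 than in M1 were 4 in place of 7, those lower 1 in place of 2, and those higher in CD4 than in M1 1 in place of 4. With a filter at 1 FPKM the last count was 2, since fewer genes were compared. Rescaling to a total of 1000000 multiplied all levels by construction and moved the median log2 ratio of M2 to M1 over 9821 genes from 0.04 to 0.22. It gave 16, 20 and 24 nephron genes at 1 FPKM in M1, M2 and CD4, 10 and 11 epithelial genes in M1 and CD4, and 2 genes of other organs in M2 and 2 in CD4, and 5 members higher in M2 than in CD4. Scaling by the median ratio, the highest row per identifier, 1 transcript per gene, a pseudocount of 0.01 and no filter left each of the member and list counts within 1.5 times. Counting error and differences between mice cannot be told apart with 1 library per group.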
